A study of Mus musculus with 10 samples.

Results

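The genotype by activation interaction asks, gene by gene, whether loss of Dusp2 altered how far a transcript moved when CD8+ T cells were stimulated. It was computed as the activation change in knockout cells minus the activation change in control cells, on a log2 scale, for 18966 tested genes of the 57010 in the deposited table. The RNA came from CD8+ T cells of the spleens of 5 mice. In 3 of them, called cKO, both copies of Dusp2 were floxed (Dusp2fl/fl) and E8I-cre was carried in 1 copy (E8I-cre+/-), and cre driven by the E8I enhancer of Cd8a is active in the CD8 lineage. The remaining 2 mice, used as controls, were also Dusp2fl/fl but carried no cre (E8I-cre-/-), so loss of Dusp2 and cre itself cannot be told apart. Each mouse gave 1 library of cells stimulated by anti-CD3/CD28 beads over 24 h and 1 library of cells kept without beads for the same time, which makes 10 libraries. Control mouse 1 and cKO mice 1 and 2 were male, and control mouse 2 and cKO mouse 3 were female. The number that begins the library names splits the mice in the same way, so sex and that number cannot be told apart. No ages are given in the sources used here.

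For cKO mouse 3, the sample titles conflict with the other labels, and the genotype and library name were followed. The library named as rested held 5.13 CPM (counts scaled to library size) of Nr4a1, a gene induced through the T cell receptor, and the one named as activated held 1050 CPM. Its Dusp2 level lay with the other cKO mice in both states, as given below. The libraries held 51203786 to 65135435 counts. Cd8a stood at 512 to 659 CPM in all libraries, and defining markers of other cells were at or near 0 (Cd4 0.16 to 1.22 CPM, Ncr1 0 to 0.069 CPM, Csf1r 0 to 0.148 CPM). In bulk RNA, fewer cells of a type and less RNA per cell cannot be told apart.

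DUSP2 is a nuclear phosphatase that removes phosphate from active MAP kinases. Its gene is itself induced within the response of T cells to antigen, and MAP kinases carry the signal from the T cell receptor to transcription factors of the AP-1 and EGR families. Early genes such as Nr4a1, Egr3 and Npas4 are induced in the same response, before the cells begin to grow and divide. An interaction in such a gene can come from the rested level, from the activated level or from both, so each gene is given below at all 4 levels.

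Promoter windows of Dusp2 and of 2 early genes with smaller changes in cKO cells, Nr4a1 and Npas4, are shown because these genes rose in both genotypes and their windows hold a searched motif. They run from 250 bases before to 50 bases after the gene start in RefSeq (build GRCm38.p6, while the count table uses mm39) and are written 5′ to 3′ on the strand of the gene. Capitals mark an EGR site (GCGNGGGCG) or the core of a cAMP response element, CRE (TGACGT), on either strand. The sites are chr2:127335909-127336208 on the plus strand for Dusp2, chr15:101266596-101266895 on the plus strand for Nr4a1 and chr19:4989922-4990221 on the minus strand for Npas4.
Dusp2: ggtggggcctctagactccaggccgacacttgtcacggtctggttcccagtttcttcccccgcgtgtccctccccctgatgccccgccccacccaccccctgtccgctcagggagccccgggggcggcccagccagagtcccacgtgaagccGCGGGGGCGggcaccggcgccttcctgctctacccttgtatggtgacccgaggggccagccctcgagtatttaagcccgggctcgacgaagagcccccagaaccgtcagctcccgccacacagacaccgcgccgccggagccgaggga
Nr4a1: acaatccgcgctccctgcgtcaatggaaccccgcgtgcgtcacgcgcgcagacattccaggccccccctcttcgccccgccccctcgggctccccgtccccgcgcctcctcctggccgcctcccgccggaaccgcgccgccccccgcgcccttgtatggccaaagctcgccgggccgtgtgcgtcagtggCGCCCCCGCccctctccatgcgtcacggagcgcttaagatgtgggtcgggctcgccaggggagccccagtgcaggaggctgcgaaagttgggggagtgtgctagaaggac
Npas4: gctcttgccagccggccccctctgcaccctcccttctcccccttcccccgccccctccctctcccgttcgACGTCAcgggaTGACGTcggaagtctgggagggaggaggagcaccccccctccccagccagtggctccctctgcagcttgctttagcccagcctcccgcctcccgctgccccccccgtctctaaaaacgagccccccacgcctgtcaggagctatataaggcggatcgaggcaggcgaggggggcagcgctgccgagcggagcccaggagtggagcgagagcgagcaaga
The Dusp2 window held 1 EGR site, beginning 98 bases before the start, and the Nr4a1 window held 1 on the opposite strand. The Npas4 window held 2 CRE cores. In all, 5.55% of 32851 windows held the EGR site and 7.51% the CRE core. The AP-1 site TGANTCA was searched as well and was absent from these 3 windows, against 7.81% of all windows. No match overlapped another motif here. A match shows only that the letters are present. Of the 30 genes named below by their p, 22 had at least 1 window in the table. Among their 27 windows, 2 held the EGR site, those of Dusp2 and Nr4a1, 5 the CRE core and 1 the AP-1 site.

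Over all genes, no gene passed the test of the interaction. With edgeR (quasi-likelihood, Benjamini-Hochberg adjusted), 0 of 18966 genes (0%) reached an adjusted p below 0.05, and the smallest adjusted p was 0.248, shared by Dusp2 and the pseudogene Gm4613. At an unadjusted p below 0.05 there were 519 genes (2.74%), 322 with a negative (1.7%) and 197 with a positive interaction (1.04%). A negative value means less of a rise or more of a fall in cKO cells. The share of 2.74% is below the 0.05 that such a threshold gives where no gene differs, so it shows no excess. Limma on log2(FPKM + 0.5) also called 0, and DESeq2's Wald test called 3, which were Gm4613, Dusp2 and the unnamed gene ENSMUSG00000121510. Without cKO mouse 3 edgeR called 3 genes as well, Gm55040, Mir682 and Rpl37a. When genes with few counts were kept in the fit, 39 passed.

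The activation changes themselves were wide and alike in both genotypes. In control cells 5399 genes rose (28.5%) and 5232 fell (27.6%), and in cKO cells 5976 rose (31.5%) and 6041 fell (31.9%). Of these, 9974 genes passed in both genotypes in the same direction. The only gene that passed in opposite directions was Gm13408, a predicted gene, which fell by 0.58 in control and rose by 0.58 in cKO cells on the log2 scale (interaction 1.16, SE 0.28, edgeR adjusted p = 1). A further 656 genes passed in control cells alone and 2042 in cKO cells alone. Of these 94 and 149 had an interaction with an unadjusted p below 0.05, and 0 passed it after adjustment. Across genes the log2 changes of the 2 genotypes correlated at r = 0.89 (18966 genes, which are not independent replicates). Without control mouse 2 the number called in control cells dropped from 10631 to 6981.

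**Figure D1:**
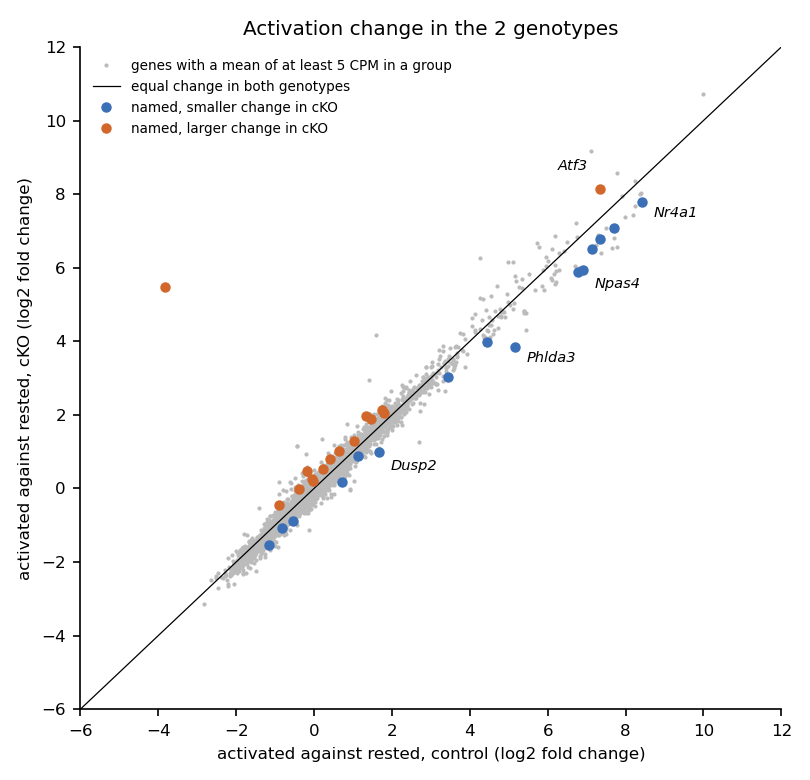
Activation change (activated against rested, log2 fold change) in control cells on the x axis and in cKO cells on the y axis for genes averaging 5 CPM or more in some group. Points lie along the line of equal change, and Dusp2 lies below it at 1.67 in control and 1.00 in cKO cells.

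The data were precise enough to bound most interactions of well-expressed genes. The unadjusted 95% interval of the interaction lay between -1 and 1 log2 units for 10609 of 10901 genes averaging 5 CPM or more in some group (97.3%). The median half-width of the interval was 0.245 among them. The fit behind these intervals held no term per mouse, although the rested and activated libraries of a mouse deviated together (r = 0.46 to 0.76). Below 5 CPM the median half-width was 1.32, and 19.8% of the genes had an interval inside those bounds. SE values were computed back from the test, as the size of the log2 change over the square root of F, and are not the fit's own standard errors.

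Dusp2 itself (ENSMUSG00000027368; chromosome 2, 127178079 to 127180296 in mm39) rose in both genotypes and rose less in every cKO mouse than in either control mouse. The rested control cells held 87.8 and 97.4 CPM and the activated ones 292 and 299 CPM. The rested cKO cells held 25, 24.8 and 28.1 CPM and the activated ones 56.3, 46.4 and 52.6 CPM. Each level in cKO cells, activated ones included, thus lay below each level in control cells. The change by mouse was 1.73 and 1.62 log2 units in control and 1.17, 0.90 and 0.90 in cKO cells. The fit gave 3.19-fold in control (log2 1.67, SE 0.08) and 2.00-fold in cKO cells (1.00, SE 0.07). The interaction was -0.68 (SE 0.11, 95% interval -0.91 to -0.45). By edgeR's quasi-likelihood test the unadjusted p was 2.61e-05 and the adjusted p 0.248, and with DESeq2 the adjusted p was 0.00104. With the mouse as a block the edgeR adjusted p was 0.452. Which exons the floxed allele loses is not given in the labels, so these counts do not measure functional transcript.

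**Figure D2:**
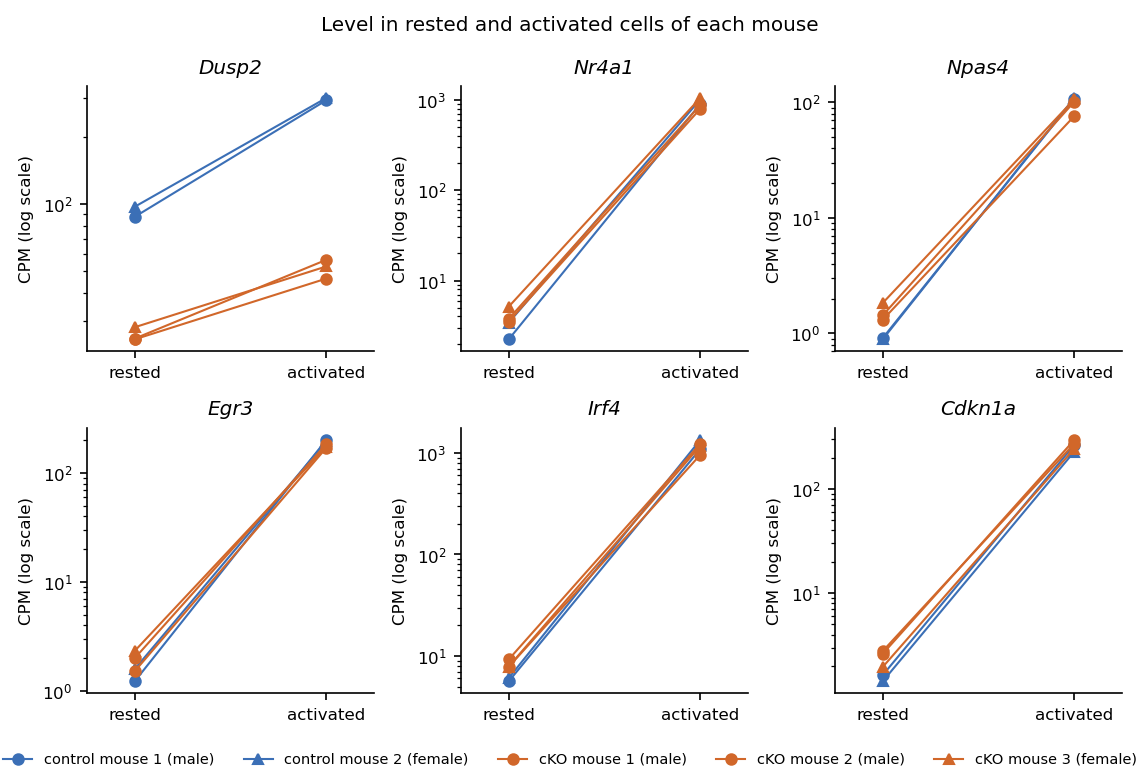
CPM on a log axis in the rested and the activated library of each mouse, for Dusp2 and 5 strongly induced genes. Lines join the 2 libraries of a mouse, blue for control and orange for cKO, triangles for females. Dusp2 starts at 24.8 to 28.1 CPM in cKO and at 87.8 to 97.4 CPM in control mice, while Nr4a1 starts at 3.51 to 5.13 CPM in cKO and at 2.23 to 3.41 CPM in control mice and ends in overlapping ranges.

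Of 13 tested genes around Dusp2 on chromosome 2, 6 rose and 4 fell with activation in cKO cells, and 3 rose and 2 fell in control cells. Over all tested genes 31.5% rose and 31.9% fell in cKO cells, and 28.5% rose and 27.6% fell in control cells. Astl, an oocyte metalloendopeptidase gene that begins just past the end of Dusp2 (127180559 to 127199571), held 246, 249 and 273 CPM in rested and 595, 571 and 691 CPM in activated cKO cells, a 2.41-fold rise (adjusted p = 6.19e-05 by edgeR). In control cells it had 13 counts over both rested and 93 over both activated libraries, of which control mouse 1 gave 67 (6.44-fold, edgeR adjusted p = 0.00815). Its interaction was -1.41 (SE 0.72, edgeR adjusted p = 1). Adra2b, an adrenergic receptor gene, rose 2.11-fold in cKO cells and Gpat2, an acyltransferase gene, 2.34-fold, with edgeR adjusted p of 0.000582 and 4.89e-06. In control cells they had 14 and 10 counts at rest and 37 and 20 after activation. The interactions were -0.17 (SE 0.86) for Adra2b and 0.38 (SE 0.68) for Gpat2, and with so few control counts their intervals reach beyond 1 log2 unit on both sides. The sign for Astl and for Adra2b turned on the FPKM scale (0.79 and 1.01). On leaving out control mouse 1 or 2, Astl came to -0.16 and -2.40. Fahd2a, which follows Gpat2, fell in cKO cells to 0.693 of its rested level (edgeR adjusted p = 0.00253), with an interaction of -0.39 (SE 0.20). Of the 13 genes, 6 had a positive interaction (median -0.05). Cdk5rap1, which lies farther along chromosome 2 and is lower in cKO cells in both states, had an interaction of -0.07 (SE 0.15).

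By rule, up to 15 genes were then named in each direction. They had the smallest p among genes averaging 5 CPM or more in some group whose changes in the 3 cKO mice all lay below, or all above, those of both control mice. Such a separation held for 16.3% of all tested genes (9.03% below and 7.23% above). With so few mice, random order of their changes would be expected to separate at least this share of genes. The share therefore shows no excess, and separation alone is no evidence of a genotype effect. The 15 with a smaller value in cKO cells had interactions of -1.32 to -0.26 with unadjusted p up to 0.00985, and 12 of them rose with activation in control cells. Dusp2 counts among them. Since p chose these genes, the values describe them and test nothing further, and every one had an edgeR adjusted p of 1 except Dusp2. With no low-count filter, Irf4 (adjusted p = 1.17e-06), Nr4a1 (3.27e-05), Npas4 (9.93e-05), Phlda3 (0.00474) and Egr3 (0.0253) passed edgeR's test, as did Dusp2 (1.56e-07). In that fit the prior degrees of freedom became infinite for the median gene, so the spread of single genes hardly entered. Mir682 (9.15e-29) and Rpl37a (7.81e-22), whose levels varied widely within the rested cKO libraries, passed there as well. These p therefore add no support for the named genes.

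The set held 4 transcription factors induced through the receptor, Nr4a1, Npas4, Egr3 and Irf4, whose genotype differences were larger in value at rest than after activation, although neither passed the test. Nr4a1, an orphan nuclear receptor induced in proportion to receptor signals, held 2.23 and 3.41 CPM in rested control and 3.51, 3.76 and 5.13 CPM in rested cKO cells. After activation it held 900 and 1010 CPM in control and 795, 874 and 1050 CPM in cKO cells. The rested cKO cells were the higher ones without overlap, and the activated groups overlapped. The rise was 343-fold in control and 220-fold in cKO cells, an interaction of -0.64 (SE 0.14, edgeR unadjusted p = 0.000437). The genotype difference was 0.62 (SE 0.12, adjusted p = 0.184) at rest and -0.03 (SE 0.08, adjusted p = 0.971) after activation. The interaction was -0.40 without control mouse 1 and -0.87 without control mouse 2.

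Npas4, an activity-dependent transcription factor best known in neurons, held 0.909 and 0.887 CPM in rested control and 1.31, 1.43 and 1.83 CPM in rested cKO cells. The activated levels were 107 and 109 CPM against 75.8, 101 and 106 CPM. Here every cKO library was above the controls at rest and below them after activation (interaction -0.95, SE 0.25, edgeR unadjusted p = 0.00253). The unnamed gene ENSMUSG00000120130, also on chromosome 19 (5050127 to 5051876, with Npas4 at 5034383 to 5040344), had an interaction of -0.90 (SE 0.27). It rose to 31.4 and 32.0 CPM in control and to 22.9, 24.5 and 24.7 CPM in cKO cells.

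Egr3, a zinc-finger factor that acts downstream of NFAT and MAP kinase signals, held 1.22 and 1.58 CPM in rested control and 1.99, 1.51 and 2.32 CPM in rested cKO cells. After activation it held 201 and 195 CPM in control and 184, 170 and 174 CPM in cKO cells, so the groups overlapped at rest and did not after activation. Irf4, which scales effector expansion with receptor strength, held 5.62 and 6.05 CPM in rested control and 9.24, 7.81 and 7.87 CPM in rested cKO cells. It reached 1090 and 1340 CPM in control and 1230, 955 and 1170 CPM in activated cKO cells. The interactions were -0.64 (SE 0.19) for Egr3 and -0.63 (SE 0.18) for Irf4. That of Egr3 was -0.41 without control mouse 1. For Irf4, as for Nr4a1, the groups were apart at rest and overlapped after activation.

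A pair of p53 target genes lay in the same set. Cdkn1a, which encodes the cell cycle inhibitor p21, held 1.63 and 1.42 CPM in rested control and 2.77, 2.61 and 1.95 CPM in rested cKO cells. It reached 264 and 228 CPM in control and 272, 295 and 243 CPM in cKO cells (interaction -0.54, SE 0.12, edgeR unadjusted p = 0.000784). Phlda3, an inhibitor of AKT at the membrane, held 0.532 and 0.231 CPM against 0.944, 0.870 and 1.01 CPM at rest. After activation it held 14.4 and 13.1 CPM against 13.1, 15 and 12.5 CPM (interaction -1.32, SE 0.30). Both genes were higher in every rested cKO library than in every rested control library, and overlapped between genotypes after activation. In the whole list of apoptosis and p53 genes, 11 of 25 tested members had a positive interaction, with a median of -0.01.

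Other induced genes of the set had roles outside the early transcription factors. Sh3bp2, an adaptor of antigen receptor signals, rose 21.7-fold in control and 15.8-fold in cKO cells (interaction -0.46, SE 0.10). Its rested levels were 5.02 and 4.67 CPM in control and 6.12, 6.54 and 6.4 CPM in cKO cells. Tacc2, a centrosomal protein gene, had an interaction of -0.42 (SE 0.13) and Hivep2, a zinc-finger factor that binds NF-kB-like sites, -0.27 (SE 0.08). Tacc2 overlaps another coding gene, Fgfr2. The difference in Hivep2 was larger in value after activation (-0.20) than at rest (0.07), with levels of 402 and 414 CPM in control and 350, 339 and 365 CPM in cKO cells. Xdh, xanthine dehydrogenase, rose 1.63-fold in control cells (adjusted p = 0.000697), while in cKO cells the change was 1.12-fold (adjusted p = 0.202; interaction -0.54, SE 0.18). In the whole set of 15, 12 had a positive genotype difference at rest (median 0.40) and 1 had a positive one after activation (median -0.16).

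Of the 15 genes, 3 fell with activation, and they fell further in each cKO mouse than in either control mouse. Tef, a PAR-family bZIP factor, fell to 0.447 of its rested level in control and to 0.344 in cKO cells (interaction -0.38, SE 0.10, and -0.23 without control mouse 2). Pag1, the membrane adaptor that anchors the kinase CSK and so restrains the receptor, held 172 CPM in both rested control libraries and 174, 170 and 170 CPM in rested cKO cells. After activation it held 99.9 and 93.9 CPM in control and 84.4, 84.7 and 73.3 CPM in cKO cells (interaction -0.26, SE 0.08). Zfp799, a zinc-finger gene, had an interaction of -0.35 (SE 0.11). For Pag1 the genotypes were alike at rest and apart after activation, the reverse of the layout of Nr4a1.

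The 15 genes with a larger value in cKO cells had interactions of 0.24 to 9.32 with unadjusted p of 0.00689 to 0.0245. Ddt, which encodes a relative of the cytokine MIF, held 12.9 and 11.2 CPM in rested control and 13.8, 13.2 and 12.7 CPM in rested cKO cells. It reached 40.3 and 40.0 CPM in control and 62.7, 52.1 and 58.4 CPM in activated cKO cells. The groups overlapped at rest and were apart after activation (interaction 0.39, SE 0.12), where the genotype difference was 0.51 (SE 0.08, edgeR adjusted p = 0.0761). It overlaps another coding gene, Gm20441. Atf3, a stress-induced bZIP factor, rose 163-fold in control and 284-fold in cKO cells (interaction 0.80, SE 0.31). Its rested levels of 0.326 and 0.355 CPM in control and 0.341, 0.191 and 0.148 CPM in cKO cells overlapped. After activation it held 60.3 and 51.4 CPM against 69.0, 62.2 and 60.2 CPM. Nab2, a corepressor of EGR factors, rose 3.49-fold in control and 4.15-fold in cKO cells (interaction 0.25, SE 0.10), and it overlaps Stat6. Its interaction was 0.11 without control mouse 2 and 0.42 without control mouse 1.

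Other members of the set ranged widely. Gstt2, a glutathione transferase gene, had an interaction of 0.39 (0.13 without control mouse 2 and 0.66 without control mouse 1), and Rpl22l1, a paralogue of a ribosomal protein gene, 0.36. Spdl1, which works at the kinetochore, had 0.63, Elp6, a subunit of Elongator, 0.41, and the methyltransferase gene Eef1akmt4 0.43. The tubulin gene Tubb2a had 0.31, the small GTPase gene Rhof 0.26 and the aminopeptidase gene Aopep 0.24. Snora3 (0.63) lies within Rpl27a, and Rnaset2a (0.45) overlaps Gm49673. Eef1akmt4 overlaps the coding genes Alg3 and Eef1ece2, Rhof overlaps Tmem120b, and Aopep overlaps Fancc. Reads of these genes could be split or shared. The unnamed gene ENSMUSG00000121510 on chromosome 17 (36452650 to 36456636) gave 9.32 (SE 2.43) from few counts. It had 148 and 484 counts in rested and 47 and 9 in activated control cells, against 0, 1 and 1 and then 98, 14 and 9 in cKO cells.

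**Figure D3:**
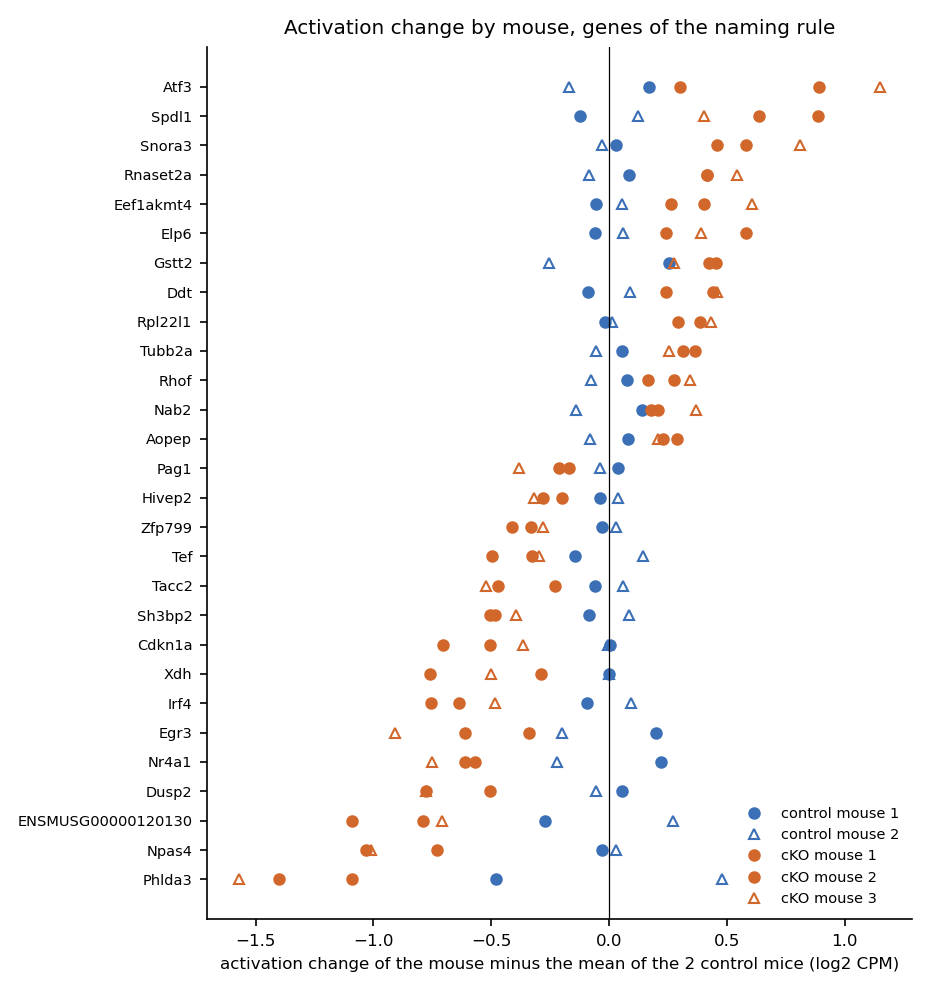
Activation change of each mouse (log2 CPM, activated minus rested) minus the mean of the 2 control mice, for genes of the naming rule, leaving out ENSMUSG00000121510 and a gene not reported here. Blue marks control and orange cKO mice, open triangles females. By the rule all 3 cKO mice lie on one side of both control mice, and the spread of the control mice is widest for Phlda3, at 4.67 and 5.63.

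The lists of T cell genes are described by their counts. Over all genes 47.4% had a positive interaction, with a median of -0.01, and 0 members of any list passed the test. Of 21 immediate early transcription factors 13 were positive (median 0.04), with Nr4a1 and Egr3 on the negative side and Atf3 at the upper end. That count was 6 of 21 without control mouse 2 (median -0.08) and 13 of 21 without control mouse 1 (median 0.16). Of 16 tested AP-1, BATF, NFAT and IRF factors 4 were positive (median -0.08). Irf1, an interferon regulatory factor, had -0.16 (SE 0.08, edgeR unadjusted p = 0.0483). Maf, at 0.572 to 2.22 CPM, had 1.11 (SE 0.45).

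The RNA of genes in the pathway that DUSP2 acts on had interactions close to those of all genes. RNA levels do not measure the activity of MAP kinases, which was not tested. Of 18 feedback genes of the MAP kinase pathway (other Dusp genes, Sprouty and Spred) 8 were positive, with a median of -0.03 and a range of -0.61 to 0.23. Of 19 tested MAP kinases and their kinases 8 were positive, with a median of -0.02. In neither list did a member have an unadjusted p below 0.05. Of 26 tested subunits of the BAF chromatin remodelling complex, which the title of the study names, 11 were positive (median -0.02) and 0 had an unadjusted p below 0.05. Arid1a, a DNA-binding subunit, had -0.14 (SE 0.08) and Bcl7c 0.32 (SE 0.17).

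Effector and surface genes varied by member. Of 15 effector transcription factors 6 were positive (median -0.07). Runx3, which sets the cytotoxic programme, fell from 192 and 195 to 111 and 116 CPM in control and from 211, 193 and 203 to 104, 102 and 101 CPM in cKO cells (interaction -0.22, SE 0.08, edgeR unadjusted p = 0.0157). Ikzf3 had -0.23 (SE 0.10), and -0.15 without cKO mouse 3. Of 22 tested cytokines and chemokines 10 were positive, with a median of -0.01 and 0 members at an unadjusted p below 0.05. Of 20 cytotoxic molecules 12 were positive (median 0.04). Serpinb9, the granzyme B inhibitor, held 23.3 and 25.6 CPM in activated control cells, where the change did not pass (edgeR adjusted p = 0.0714), and rose to 38.1, 29.0 and 48.5 CPM in cKO cells (interaction 0.68, SE 0.27, edgeR unadjusted p = 0.0353, and 0.43 without cKO mouse 3). Pdcd1lg2, which encodes PD-L2, rose 164-fold in control and 84.0-fold in cKO cells (-0.97, SE 0.38, and -0.61 without control mouse 2), from rested levels below 1 CPM. The co-stimulatory receptor gene Icos rose 2.33-fold in control and 1.96-fold in cKO cells (-0.25, SE 0.09). Of 23 NF-kB genes 5 were positive (median -0.07), and of 26 naive and memory genes 6 (median -0.05). Both counts turned on a single mouse. Without control mouse 1 they were 13 of 23 (median 0.04) and 15 of 26 (median 0.07). Without control mouse 2 they were 5 of 23 (median -0.06) and 8 of 26 (median -0.11).

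Growth genes had mostly positive interactions of small size, and both the count and the size depended on single mice. Of 41 DNA replication genes 34 were positive (median 0.15), of 37 mitosis genes 27 (0.12), of 20 chaperone and unfolded protein response genes 20 (0.09), and of 32 oxidative phosphorylation genes 28 (0.06). Prim2, a primase subunit, had 0.33 (SE 0.15), and Creld2, of the endoplasmic reticulum, 0.29 (SE 0.13), which was 0.18 without cKO mouse 3. The median change of the replication list was 0.67 and 1.02 in the control mice and 1.08, 0.86 and 1.20 in the cKO mice. Without control mouse 1 its median interaction was -0.01, and without control mouse 2 it was 0.33. The chaperone list went to 0.01 and 0.23 in the same way. Without control mouse 1 the positive members were 19 of 41 for replication, 23 of 37 for mitosis, 10 of 20 for chaperones and 19 of 32 for oxidative phosphorylation. Without cKO mouse 3 they were 23, 21, 11 and 16. Summed markers of NK and innate-like lymphocytes, of which 12 of 22 tested had a positive interaction, ran from 521 to 643 CPM in rested and from 582 to 677 CPM in activated control cells, and from 537 to 740 CPM and from 753 to 825 CPM in cKO cells. Heat shock and stress genes summed to 2380 to 2570 CPM in activated control and 2640 to 2880 CPM in activated cKO cells, and their part in the result was not tested.

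**Figure D4:**
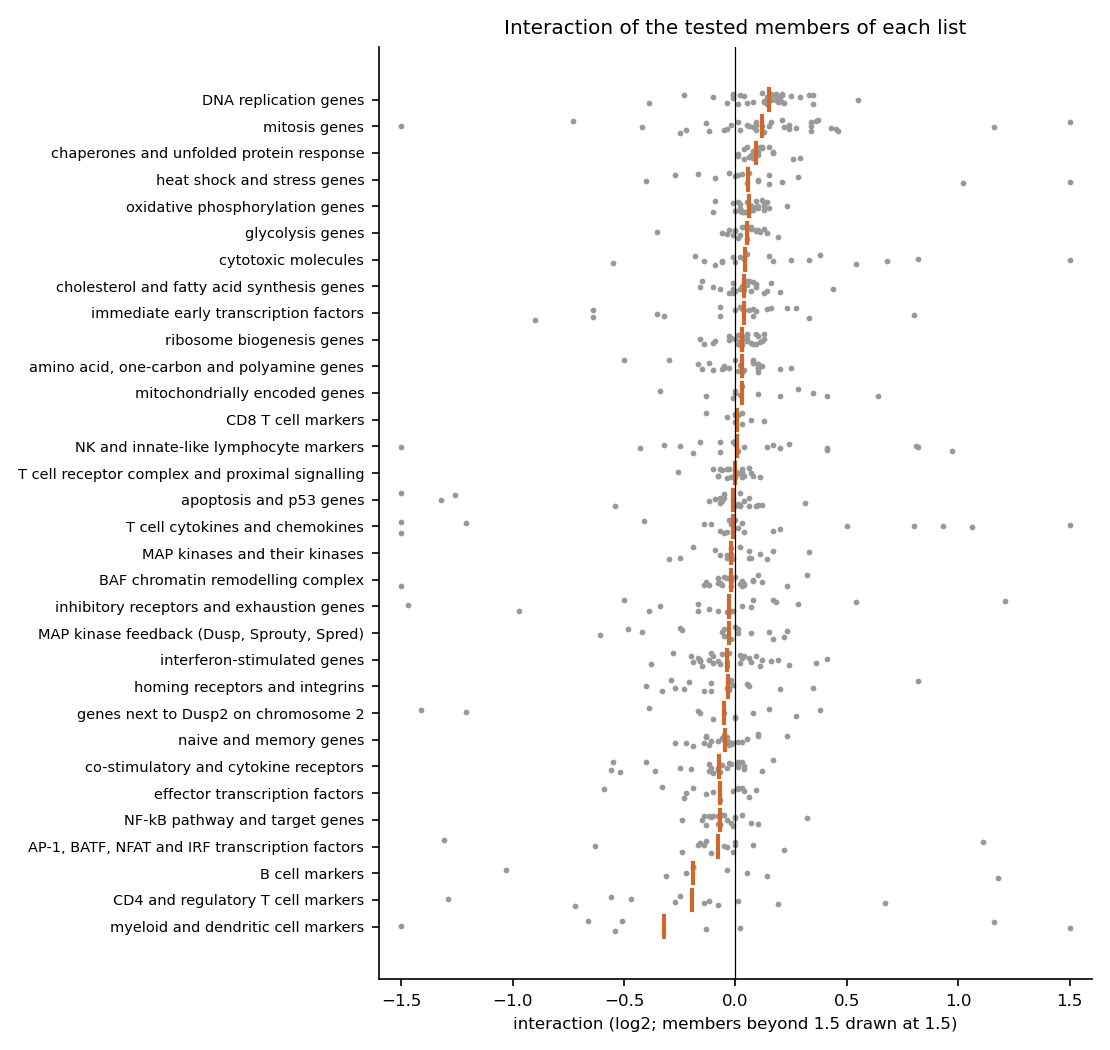
Interaction (log2) of each tested member of 32 gene lists as grey points, with the median as an orange bar. Positions within a row are scattered for legibility, and 12 members beyond 1.5 are drawn at 1.5. Medians lie near 0, from 0.15 for DNA replication genes down to -0.32 for myeloid and dendritic cell markers, of which 8 of 21 were tested.

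How strongly a mouse responded differed within each genotype. Genes averaging 5 CPM or more in some group were grouped by their mean activation change over both genotypes. For the 920 genes that moved up by 1 to 2 log2 units, control mouse 1 lay 0.13 below and control mouse 2 0.08 above the mean change, in the median. The cKO mice 1, 2 and 3 lay at 0.01, -0.13 and 0.18. Both females thus responded more than the males of their genotype, here and for the 273 genes that moved up by 2 to 4. Each genotype has a lone female, and sex cannot be told apart from the number in the library names. The median interaction was 0.04 for the first group and 0.00 for the second.

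In the 108 most strongly induced genes, those up by more than 4 log2 units, the interaction had a median of -0.09 and was positive in 47. At an unadjusted p below 0.05 by edgeR, 14 of them had a smaller and 4 a larger change in cKO cells. Over all tested genes the shares were 1.7% smaller and 1.04% larger. Of the 8632 genes that moved by less than 1 unit, 89 had a smaller and 39 a larger change. The median genotype difference of the 108 genes was 0.31 at rest and 0.15 after activation. By mouse, the median deviation from the mean change was -0.09 and 0.28 in control and -0.20, -0.23 and 0.23 in cKO mice. These ranges overlap. Among the 918 genes that moved down by 1 to 2 units the median interaction was -0.07 and 28.1% were positive, against 48.9% of the 8632 genes that moved by less than 1 unit. For the 918 genes the control mice lay at 0.15 and -0.08 and the cKO mice at -0.07, 0.16 and -0.20. The genotypes overlapped here too, and genes that move together within a mouse are not replicates.

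**Figure D5:**
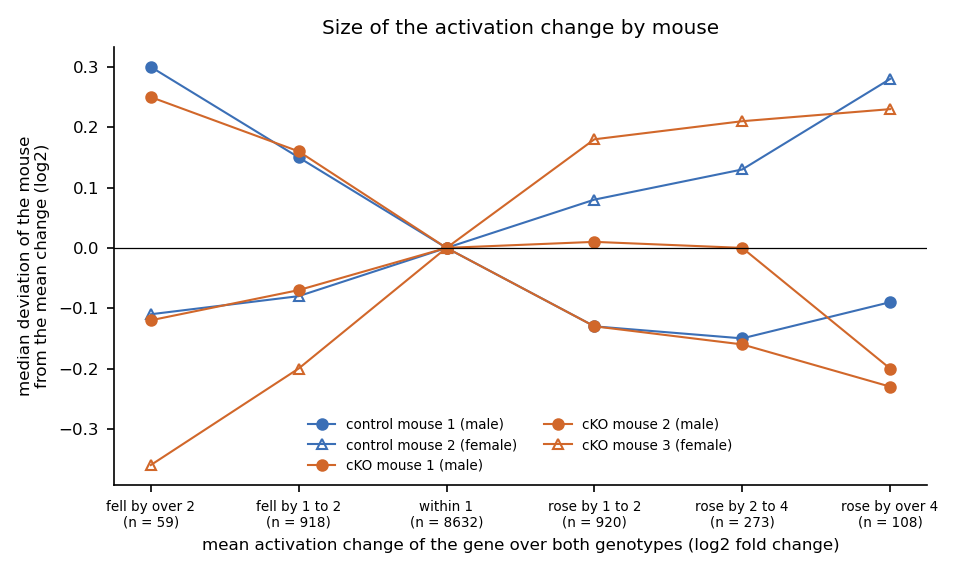
Median deviation of each mouse from the mean activation change (y axis, log2) for genes grouped by that mean change (x axis). Blue lines are control and orange lines cKO mice, open triangles are females. In the genes that rose by 2 to 4 the females lie at 0.13 and 0.21 and the males at -0.15, 0.00 and -0.16.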

How the data were processed

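Total RNA of 10 libraries was made into stranded mRNA libraries, per the labels' protocols. Per the submitters' processing notes, the build was mm39 and the tools Subread, FastQC and MultiQC. No source used here gives versions, settings, annotation or strand use, which leaves overlapping genes, antisense genes and close copies uncertain. Per gene, the deposited count is a whole number. The deposited FPKM, scaled by the authors to gene length and library, served only as an alternative.

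The analysis used edgeR 4.0.16 (R 4.3.3) with TMM, filterByExpr by group, and a robust quasi-likelihood fit of group means plus sex over all 10 libraries, with Benjamini-Hochberg adjustment over all genes (threshold 0.05). There were 5 residual degrees of freedom, and biological variation came to 9.14%. Changes per mouse are differences of log2 CPM with a prior count of 2. Rested and activated libraries of a number come from the same animal; about the group means they deviated together (r = 0.46 to 0.76). Replicates differed by more than sampling noise, with chi-square over its degrees of freedom at 8.80 to 43.9. A count of 3 corresponds to 0.0461 to 0.0586 CPM, which covers counting error only.

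The test was tested on simulated data of 18632 genes. It recovered 38 of 67 genes given a 1.5-fold interaction and 59 of 67 given a 2-fold one, with 6 false calls. A further 66 genes were given a 4-fold one. The adjusted threshold is easier to reach where many genes differ, so recovery can be lower where few do. Small interactions can therefore be missed. The members and lists were chosen with earlier results of these data known. Named genes were Dusp2, up to 15 per direction by p as described, up to 3 per list by p, and genes shown by an alternative. Predicted genes, pseudogenes and receptor segments were left out of the 15. Some items are not reported here. Alternatives used limma 3.58.1 and DESeq2 1.42.0, and tables and figures Python 3.11.15.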

Additional observations from a re-analysis of the deposited data

How the results depend on the processing

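The interaction gave 0 changed genes under 11 of 14 alternatives. It gave 39 with no low-count filter, where the prior degrees of freedom became infinite for the median gene, all 39 of them also tested in the filtered fit. It gave 3 with DESeq2's Wald test, and between 0 and 3 when each mouse was left out in turn, the 3 without cKO mouse 3; the cause was not tested. With the replicate block, a term per mouse, it gave 0 and changed no call. The count at an unadjusted p below 0.05 ran from 201 with the stricter filter of 5 CPM in 2 libraries to 970 with a sex effect per state, where the smallest adjusted p was 0.0991. The number changed by activation in control cells ran from 6981 to 10646 when a mouse was left out, the lowest without control mouse 2, which leaves a lone control mouse assumed to vary like the other groups. With the replicate block it was 10352 in control and 11840 in cKO cells. Of 710 values of the named genes under an alternative, 686 kept direction and call, 19 came past the threshold and 5 turned. The turned ones were Astl (0.79) and Adra2b (1.01) on the FPKM scale, and, on leaving out a mouse, Cdk5rap1 (-0.16 to 0.04), Adra2b (-0.65 to 1.08) and Gpat2 (-1.75 to 1.19). Dusp2, Nr4a1, Npas4, Egr3, Irf4, Cdkn1a and Phlda3 kept their sign in every alternative. The naming rule asked that their changes in all cKO mice lie below those of both control mice. Leaving out a mouse could therefore hardly turn their sign, and the kept sign adds no support. Depth limits the rest: below 5 CPM, 19.8% of genes had an interval within 1 log2 unit of 0.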

Other observations

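Some multi-copy features set 2 rested libraries apart. Mir682 held 60.0 and 72.7 CPM in the rested libraries of cKO mice 1 and 2, and 177 to 231 CPM in the other 8. Rpl37a, a ribosomal protein gene, held 558 and 555 CPM in the same 2 libraries and 173 to 232 CPM elsewhere. The microRNA gene Gm55040 lies within the pseudogene Gm4613 on chromosome 7, and held 0.0602 and 0.0348 CPM there, 0.719 CPM in rested cells of cKO mouse 3 and 2.15 to 3.90 CPM in the rest. Gm4613 itself was lower in all 3 rested cKO libraries, at 1.91, 2 and 1.6 CPM against 5.30 and 6.33 CPM in control (edgeR adjusted p = 0.00186), and overlapped after activation, at 4.48, 4.55 and 3.35 CPM against 3.96 and 4.53 CPM. Its interaction was 1.62 (SE 0.25). These genes were chosen after their values were seen, and reads can be shared between such copies. How reads of several origins were counted is not given in the sources used here.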
